A study of Danio rerio with 43 samples.

Results

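The genes described here are the DNA damage checkpoint kinases atr, atm, chek1 and chek2, the Wee1-family kinases wee1 and wee2, and the Cdc25 phosphatases cdc25b and cdc25d, together with the Chk1 adaptor gene clspn. They were chosen by symbol from the deposited count table, in which 8 of the 9 symbols were found among 31877 gene entries, and clspn was not analysed here. Their levels were followed in pools of whole zebrafish embryos that were homozygous for the rif1 allele omf201, and in wild-type embryos of the Tab5 strain. Rif1 is a chromatin protein that sets the timing of DNA replication and takes part in break repair. The strain label of the mutants is also Tab5, the genotype of the parents is not given in the sources used here, and no group received a treatment. Embryos were collected at 6 stages, which were the 1-cell stage (0 to 0.5 hours post fertilisation, hpf), the 256-cell stage (2 to 2.5 hpf), dome (4 to 4.5 hpf), shield (6 hpf), bud (10 hpf) and 24 hpf. The mutant and wild-type groups held 3 and 4 libraries at the 1-cell stage, 3 and 3 at 256-cell, 3 and 4 at dome, 4 and 3 at shield, 4 and 4 at bud, and 4 and 4 at 24 hpf. Each library was made from polyadenylated RNA by 3′ end sequencing (QuantSeq), so a gene's count tracks its transcript number and the presence of a poly(A) tail, and these cannot be told apart.

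Entry into mitosis requires cyclin-dependent kinase 1 (Cdk1), which Wee1-family kinases switch off by phosphorylating it and Cdc25 phosphatases switch on by removing that phosphate. ATR, recruited to single-stranded DNA at stalled replication forks, activates Chk1 with the help of Claspin, while ATM responds to double-strand breaks and activates Chk2. Chk1 and Chk2 phosphorylate Cdc25 proteins and thereby hold the cell cycle. The early cleavage cycles of fish and frog embryos run fast on maternal products, with little checkpoint delay, and Chk1 becomes active as the cycles lengthen at the mid-blastula transition, when the embryo's own genome is switched on and maternal RNAs are cleared.

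The 43 libraries, 21 mutant and 22 wild-type, held 5211421 to 14143931 counts each, with a median of 7606729. Levels below are counts scaled to library size (CPM) with TMM factors over all 43 libraries, given in replicate order, and are compared within a gene only. The rif1 gene itself averaged 2.49 to 18.8 CPM in the mutant groups and 74.3 to 253 CPM in the wild-type groups, with log2 fold changes of -2.78 (shield) to -6.26 (256-cell). Where the omf201 allele lies relative to the sequenced 3′ end is not given in the sources used here. The markers of zygotic expression from dome followed the labels in both genotypes: the summed level of tbxta, vox and vent was at most 1.79 CPM in any library of the 1-cell and 256-cell groups and 332 to 364 CPM in mutant dome libraries, against 179 to 255 CPM in wild-type dome libraries. Not every listed marker did so. The maternal marker ddx4 had 179 to 218 CPM in mutant shield libraries, against 111 to 138 CPM in mutant 1-cell libraries. The bud marker myod1 was highest at 24 hpf in both genotypes. Nothing in the labels says that libraries of a group came from separate clutches, so p-values measure the spread between these samples, which may be technical.

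Those of the 8 genes that passed the low-count filter were compared between the genotypes at each stage with edgeR's quasi-likelihood test. A gene was called at a Benjamini-Hochberg adjusted p under 0.05 over all genes tested. At the 1-cell stage 2 of the 7 genes tested were called, atr and atm, both lower in mutants, where 10.2% of all genes tested were called. At 256-cell 0 of 7 were called by this test, against 13.5% of all genes. There DESeq2 called 0 of the 7, and 1 (wee1) had an unadjusted p under 0.05. The share of all genes at an unadjusted p under 0.05 is not given here. At dome 1 of 7 was called, wee1, higher in mutants, against 17% of all genes. At shield 2 of 6 were called, atr and wee2, both lower in mutants, against 9.71% of all genes. There atr, with 1 count in the 4 mutant libraries together, passed the low-count filter through its wild-type libraries alone. Its place in this count therefore adds no separate support. At bud 0 of 7 were called by edgeR, against 5.51% of all genes. There 1 (atr) had an unadjusted p under 0.05. DESeq2 called 1 of the 7 at bud, and of all genes 399 higher and 444 lower. At 24 hpf 1 of 6 was called by edgeR, atr, lower in mutants, against 8.64% of all genes. The other genes, chek1, chek2, cdc25b and cdc25d, were called at none of the 6 stages, and cdc25d, with at most 26 counts in a library, did not pass the low-count filter at any of them.

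**Figure D1:**
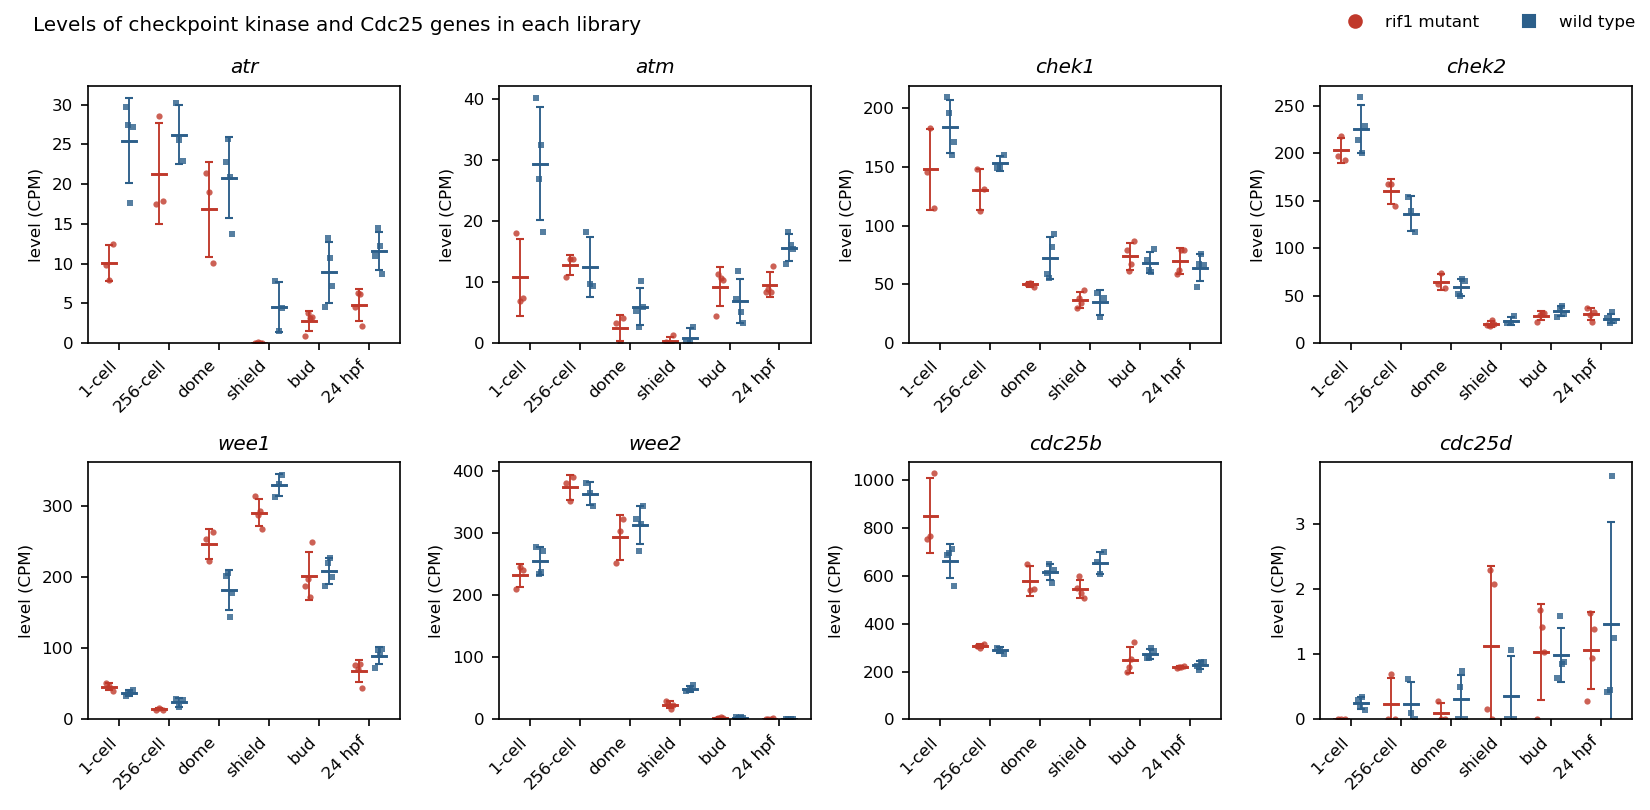
Level in CPM of each of the 8 genes (vertical axis, from 0, own scale per gene) at each of the 6 stages, with mutant libraries as red circles left of wild-type libraries as blue squares, the group mean as a bar and the SD as whiskers (cut at 0 where they would go below it). The atr level lies below every wild-type library in all mutant libraries of the 1-cell, shield, bud and 24 hpf groups, while wee1 rises between 256-cell and dome and wee2 falls after dome in both genotypes.

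The ATR kinase gene atr (ENSDARG00000079625) had 9.86, 7.87 and 12.4 CPM in the 3 mutant 1-cell libraries, against 29.7, 27.4, 17.7 and 27.2 CPM in the 4 wild-type ones. Every mutant 1-cell library lay below every wild-type library. The log2 fold change was -1.32 (SE 0.27, adjusted p = 0.00795), and the call held without each library in turn. The 5 maternal markers buc, zar1, ccnb1, ddx4 and nanos3, none of them at 0 in either group, had a summed level of 2737 to 3101 CPM in mutant and 3352 to 3959 CPM in wild-type 1-cell libraries. For ccnb1 and ddx4 alone the groups overlapped. Their part in the atr result was not tested. At 256-cell atr had 17.5, 28.6 and 17.9 CPM in mutants and 30.2, 25.5 and 22.9 CPM in wild type, and at dome 21.4, 19 and 10.1 CPM in mutants and 22.8, 25.7, 20.9 and 13.8 CPM in wild type. The groups overlapped at both stages, and neither log2 fold change (-0.30 at each) passed the test (adjusted p = 0.512 and 0.594).

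At shield atr was counted once in the 4 mutant libraries together, which had 0, 0.176, 0 and 0 CPM, while the wild-type libraries had 7.75, 1.52 and 4.35 CPM from 94 counts. The groups did not overlap, although 1 wild-type library, replicate 3, lay well below the other two. Scaled by library size, the mutant level was 0.885% of the wild-type level, with an exact 95% interval of 0.0222% to 5.05% that covers counting error only. The fitted log2 fold change of -6.19 (SE 1.55, adjusted p = 0.0120) depends on how the model treats counts of 0. Without mutant replicate 3, or without wild-type replicate 1 or 4, the gene did not pass the low-count filter and was not tested. At bud the mutant libraries had 0.922, 3.73, 3.11 and 3.22 CPM and the wild-type libraries 4.47, 13.2, 10.7 and 7.13 CPM. All 4 mutant libraries were again below all wild-type libraries, but the log2 fold change of -1.72 (SE 0.53) missed the threshold in the edgeR test (adjusted p = 0.0584). It passed with DESeq2 (adjusted p = 0.0210), without the low-count filter (0.0470), in one fit of all 12 groups (0.0199) and without wild-type replicate 1 (0.0495).

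At 24 hpf atr stood at 4.57, 6.33, 6.13 and 2.08 CPM in mutants, against 11, 14.5, 12.2 and 8.69 CPM in wild type. The groups did not overlap, and the log2 fold change was -1.25 (SE 0.37, adjusted p = 0.0280). That call was lost without mutant replicate 1 or 4 and without wild-type replicate 1, 2 or 3, with adjusted p-values of 0.0505 to 0.114 and log2 fold changes of -1.0 to -1.28, and in one fit of all 12 groups (adjusted p = 0.168). In that fit the 1-cell call was lost as well (adjusted p = 0.0576). At 24 hpf the 3 enveloping-layer keratins krt4, krt5 and cyt1 summed to 29142 to 32151 CPM in mutants and 25905 to 26553 CPM in wild type. Of these, krt5 went the other way, at 1156 to 1399 CPM in mutants and 1520 to 1895 CPM in wild type. The 2 yolk syncytial layer markers, apoa2 and mxtx2, summed to 4986 to 6934 CPM in mutants and 3164 to 4466 CPM in wild type, with mxtx2 at most 0.831 CPM in any library. The part of these keratins and markers in the atr result was not tested. In whole embryos, fewer cells that carry a transcript and less of it per cell cannot be told apart.

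The ATM kinase gene atm (ENSDARG00000002385) had 18.1, 6.85 and 7.38 CPM in mutant 1-cell libraries, against 40.1, 26.8, 32.5 and 18.3 CPM in wild type. The lowest wild-type library was close to the highest mutant one on this scale, and on the scale of the test of this stage the groups overlapped. The log2 fold change was -1.43 (SE 0.36, adjusted p = 0.0212), and the call was lost without mutant replicate 2 (adjusted p = 0.0649), mutant replicate 3 (0.0573) or wild-type replicate 1 (0.0742), and in one fit of all 12 groups (0.249). No later stage was called. At 24 hpf the mutant libraries had 8.31, 8.93, 8.33 and 12.7 CPM and the wild-type libraries 12.9, 18.1, 16.1 and 15.5 CPM, without overlap but with a log2 fold change of -0.70 (SE 0.28) that did not pass (adjusted p = 0.136). At shield atm was at 0 in 2 of the 4 mutant libraries and in 2 of the 3 wild-type libraries, and at most 1.38 CPM in mutants and 2.61 CPM in wild type, and it was not tested there.

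**Figure D2:**
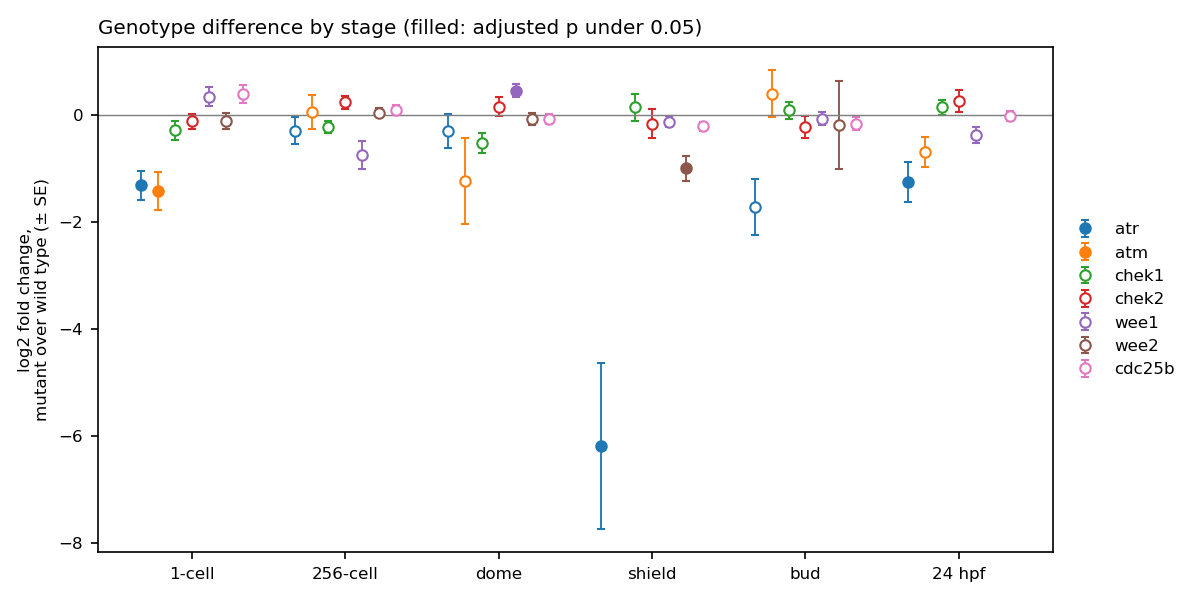
Log2 fold change, mutant over wild type, with its standard error (vertical axis) for each gene that passed the low-count filter at each of the 6 stages (horizontal axis), filled where the adjusted p was under 0.05. The filled points are atr and atm at the 1-cell stage, wee1 at dome, atr and wee2 at shield, and atr at 24 hpf, and the shield value of atr rests on 1 count in 4 mutant libraries.

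The effector kinase genes were called at no stage. The Chk1 gene chek1 (ENSDARG00000104765) had 50.5, 51.5 and 47.7 CPM in mutant dome libraries, against 59.0, 55.8, 81.7 and 93.1 CPM in wild type. All mutant libraries were below all wild-type ones, and 2 of the wild-type libraries, replicates 3 and 4, were well above the rest. The log2 fold change of -0.52 (SE 0.19) missed the threshold (adjusted p = 0.0549). It passed with library totals (adjusted p = 0.0397), without the low-count filter (0.0411) and without wild-type replicate 1 (0.0424) or 2 (0.0207). At the other 5 stages its log2 fold changes ran from -0.29 (1-cell) to 0.14 (shield), none called. The Chk2 gene chek2 (ENSDARG00000025820) had log2 fold changes of -0.23 (bud) to 0.26 (24 hpf) over the 6 stages, and its groups overlapped at each of them, as at dome, where mutants had 61.9, 73.3 and 57.7 CPM and wild type had 52.0, 49.8, 67.5 and 65.1 CPM. Within a library the log2 ratio of chek1 to chek2 counts was -0.51 to -0.27 in mutant dome libraries, against 0.16 to 0.52 in wild-type dome libraries. These ratios, which need no scaling between libraries, did not overlap at dome. At 256-cell they ran from -0.58 to -0.14 in mutants and from -0.05 to 0.46 in wild type, and at the other 4 stages the groups overlapped.

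The wee1 gene (ENSDARG00000093864), whose kinase inhibits Cdk1 in dividing cells, had 253, 223 and 264 CPM in mutant dome libraries, against 202, 206, 144 and 178 CPM in wild type. The mutant libraries all lay above the wild-type ones, with a log2 fold change of 0.45 (SE 0.12, adjusted p = 0.0113). The call was lost without mutant replicate 1 (adjusted p = 0.0511), mutant replicate 3 (0.0669) or wild-type replicate 3 (0.0524), and in one fit of all 12 groups (0.0694). The same dome libraries differed in some stage and layer markers: tbxta, vox and vent summed to 332 to 364 CPM in mutants and 179 to 255 CPM in wild type, and the enveloping-layer keratins krt4, krt5 and cyt1 to 578 to 623 CPM in mutants and 225 to 292 CPM in wild type. Other stage markers overlapped in sum. The gastrula markers gsc, chrd, sox17 and sox32 summed to 280 to 397 CPM in mutants and 306 to 379 CPM in wild type, though gsc alone was higher in mutants without overlap. The 5 maternal markers summed to 2508 to 2650 CPM in mutants and 2549 to 2945 CPM in wild type. Most of that sum was ccnb1, at 2071 to 2243 CPM in mutants and 1794 to 2200 CPM in wild type. Of the 5, buc alone was lower in mutants without overlap, at 117 to 144 CPM in mutants and 310 to 507 CPM in wild type. The yolk syncytial layer markers mxtx2 and apoa2 summed to 227 to 279 CPM in mutant and 312 to 375 CPM in wild-type dome libraries. Their part in the wee1 result was not tested. One stage earlier, at 256-cell, wee1 had 13.6, 16.1 and 13.4 CPM in mutants and 29.0, 17 and 26.8 CPM in wild type. There the mutant libraries lay below all wild-type ones, but the log2 fold change of -0.76 (SE 0.26) did not pass (adjusted p = 0.0600). It passed without wild-type replicate 2, the lowest wild-type library (adjusted p = 0.0242), and in one fit of all 12 groups (0.00653).

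At the 1-cell stage wee1 had 51.0, 47.4 and 40.3 CPM in mutants and 32.5, 39.3, 35.8 and 41.5 CPM in wild type, with a log2 fold change of 0.34 (SE 0.18, adjusted p = 0.261). At shield it had 315, 288, 293 and 268 CPM in mutants and 313, 331 and 344 CPM in wild type, at bud 188, 198, 172 and 249 CPM in mutants and 188, 221, 228 and 200 CPM in wild type, and at 24 hpf 77.3, 71.1, 78.6 and 44.8 CPM in mutants and 72.1, 97.5, 90.4 and 99.1 CPM in wild type. These groups overlapped, and the log2 fold changes of -0.13, -0.08 and -0.38 did not pass (adjusted p = 0.490, 0.823 and 0.118).

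The wee2 gene (ENSDARG00000012718) encodes the second Wee1-family kinase, known in mammals from oocytes. In mutant shield libraries it had 30.0, 25.0, 17.3 and 23.8 CPM, against 46.2, 47.8 and 54.9 CPM in wild type. Every mutant library was below every wild-type library, and the log2 fold change was -1.0 (SE 0.23, adjusted p = 0.00686). That call held without each library in turn. The 5 maternal markers summed to 1557 to 1689 CPM in mutant and 1790 to 1881 CPM in wild-type shield libraries. Most of that sum was ccnb1, at 1268 to 1466 CPM in mutants and 1492 to 1622 CPM in wild type. Of the others, ddx4 went the other way with overlap, at 179 to 218 CPM in mutants and 150 to 183 CPM in wild type. The levels of buc, zar1 and nanos3 were lower in mutants without overlap. At shield krt4, krt5 and cyt1 summed to 3069 to 3403 CPM in mutants and 2518 to 2618 CPM in wild type. The yolk syncytial layer marker mxtx2 stood at 4.92 to 17.1 CPM in mutants and 34.9 to 51.6 CPM in wild type. The other such marker, apoa2, stood at 19.8 to 30.0 CPM in mutants and 6.74 to 15.0 CPM in wild type. Their sum was 28.6 to 44.3 CPM in mutants and 46.5 to 62.6 CPM in wild type. The part of all these markers in the wee2 and atr results was not tested. Before shield the genotypes were close, with 211, 246 and 240.3 CPM in mutants and 279, 235, 238 and 272 CPM in wild type at the 1-cell stage, and 381, 352 and 391 CPM in mutants and 381, 366 and 344 CPM in wild type at 256-cell. At dome they were at 253, 305 and 323 CPM in mutants and 323, 272, 316 and 344 CPM in wild type. The log2 fold changes at these 3 stages, from -0.11 to 0.04, were within 1 standard error of 0. At bud no library of either genotype exceeded 4.42 CPM, and at 24 hpf the gene was too low to test.

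The phosphatase gene cdc25b (ENSDARG00000010792), whose product activates Cdk1, was not called at any stage. At the 1-cell stage it had 754, 765 and 1030 CPM in mutants, against 685, 693, 712 and 558 CPM in wild type. The mutant libraries were above all wild-type ones, and replicate 3 stood above the other two, but the log2 fold change of 0.39 (SE 0.17) did not pass (adjusted p = 0.151); in one fit of all 12 groups it did (adjusted p = 0.0485). At shield it had 549, 597, 526 and 506 CPM in mutants, against 658, 607 and 698 CPM in wild type, with a log2 fold change of -0.22 (SE 0.09, adjusted p = 0.135). At 24 hpf the genotypes were closest, with 217, 219, 219.7 and 225 CPM in mutants, against 225, 204, 242 and 239 CPM in wild type, and a log2 fold change of -0.03 (SE 0.09). The family member cdc25d (ENSDARG00000075599) was rarely counted: it had 0 counts in the 3 mutant 1-cell libraries and 2 to 5 counts in the 4 wild-type ones, and its highest level was 2.28 CPM in mutants, at shield, and 3.74 CPM in wild type, at 24 hpf. A count of 0 allows up to 3 counts over the group, and cdc25d was tested in the interactions from shield to bud and from bud to 24 hpf alone, where it was not called.

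The course of each gene across development was followed by tests between neighbouring stages within a genotype (later over earlier). The share of all genes called in each test stands beside the count. Between 1-cell and 256-cell 5 of 7 genes were called in mutants (45.5% of all genes tested) and 5 of 7 in wild type (49.2%). Between 256-cell and dome these counts were 6 of 7 in mutants (50.1%) and 4 of 7 in wild type (43.3%), and between dome and shield 3 of 6 in mutants (47.3%) and 6 of 7 in wild type (52.9%). Between shield and bud 5 of 6 were called in mutants (45.6%) and 5 of 7 in wild type (50.5%), and between bud and 24 hpf 1 of 7 in mutants (59.4%) and 3 of 6 in wild type (60.0%). Some called genes passed the low-count filter through the stage where they were high alone. Between 256-cell and dome this was atm in mutants. Between dome and shield these were atr in mutants and atm in wild type. Between shield and bud these were atm in both genotypes and wee2 in mutants. Their place in these counts adds no separate support.

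By level, the order of the stages was similar in both genotypes for wee1, wee2, chek2, cdc25b and atr, but not for atm and chek1. In mutants wee1 was highest at shield, then at dome and bud, whose libraries overlapped, then at 24 hpf and the 1-cell stage, which overlapped, and lowest at 256-cell. In wild type the order was shield, bud, dome, 24 hpf, 1-cell and 256-cell, with overlap between bud and dome alone. For wee2 it was 256-cell, dome, 1-cell, shield, bud and 24 hpf in both genotypes, with neighbours overlapping at bud and 24 hpf in mutants, and also at the first 3 stages in wild type. For chek2 it was 1-cell, 256-cell and dome without overlap, then 24 hpf and bud (bud above 24 hpf in wild type) and lowest shield, with overlap between neighbours among these 3. For cdc25b the 1-cell, dome and shield levels stood above those of 256-cell, bud and 24 hpf. For atr the neighbours in order overlapped at every step in wild type, while in mutants the 1-cell libraries lay above those of 24 hpf and bud, and shield lay below all others. The mean of atm was highest at 256-cell in mutants (12.8 CPM), overlapping the 1-cell stage. In wild type it was highest at the 1-cell stage (29.4 CPM), without overlap with the next, 24 hpf. The dome mean of chek1 was below those of bud and 24 hpf in mutants, without overlap with 24 hpf. In wild type it was above both, with overlap.

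The 2 Wee1-family genes peaked at different stages. The wee1 level fell between 1-cell and 256-cell (log2 change -1.73, SE 0.23 in mutants and -0.61, SE 0.21 in wild type), then rose steeply between 256-cell and dome (4.13, SE 0.14 in mutants and 2.91, SE 0.18 in wild type). It rose again between dome and shield in wild type (0.88, SE 0.12, adjusted p = 9.53e-06), whereas the mutant change of 0.23 (SE 0.11) did not pass (adjusted p = 0.0871) and was -0.18 when libraries were scaled by their totals. After shield it fell to bud (-0.65 in mutants and -0.71 in wild type) and to 24 hpf (-1.65 in mutants and -1.26 in wild type). The wild-type fall between 1-cell and 256-cell was lost under library totals (adjusted p = 0.0702) and without wild-type 1-cell replicate 2 (0.0508) or 4 (0.0543) or 256-cell replicate 2 (0.139). The wee2 level rose between 1-cell and 256-cell (0.64, SE 0.14 in mutants and 0.52, SE 0.12 in wild type), both calls being lost in one fit of all 12 groups (adjusted p = 0.0911 and 0.196). It fell between 256-cell and dome in mutants (-0.32, SE 0.10, adjusted p = 0.0147, but 0.440 in one fit of all 12 groups), where the wild-type change of -0.21 did not pass (adjusted p = 0.114) except under library totals (0.00377). In both genotypes it fell between dome and shield (-3.62, SE 0.17 in mutants and -2.63, SE 0.13 in wild type) and between shield and bud (-3.32, SE 0.44 in mutants and -4.13, SE 0.45 in wild type).

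Within a library the log2 ratio of wee1 to wee2 counts had a negative mean up to dome and a positive mean from shield on in both genotypes, with 1 mutant dome library just above 0. It averaged -2.33 ± 0.27 in mutant and -2.78 ± 0.22 in wild-type 1-cell libraries, -4.70 ± 0.22 in mutant and -3.94 ± 0.42 in wild-type 256-cell libraries, and -0.25 ± 0.23 in mutant and -0.79 ± 0.32 in wild-type dome libraries (SD; n as above). At shield it was 3.62 ± 0.31 in mutants and 2.73 ± 0.08 in wild type. The mutant and wild-type ratios did not overlap at the 1-cell, 256-cell or shield stage, with the mutant ratio lower at 256-cell and higher at the 1-cell stage and at shield. The 1-cell groups all but touched, with a lowest mutant ratio of -2.574 and a highest wild-type ratio of -2.580. So did the 256-cell groups, with a highest mutant ratio of -4.445 and a lowest wild-type ratio of -4.423. At bud and 24 hpf, where wee2 was near 0, the groups overlapped. The log2 ratio of cdc25b to wee1 counts averaged 4.19 ± 0.43 in mutant and 4.15 ± 0.29 in wild-type 1-cell libraries and 4.41 ± 0.18 in mutant and 3.6 ± 0.42 in wild-type 256-cell libraries, and was lowest at bud (0.29 ± 0.21 in mutants and 0.39 ± 0.12 in wild type). At dome it was 1.22 ± 0.16 in mutants and 1.76 ± 0.17 in wild type, without overlap. At 256-cell the groups did not overlap either, but there the mutant ratio was the higher one (4.21 to 4.54 in mutants and 3.36 to 4.09 in wild type). No test was run on these ratios.

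**Figure D3:**
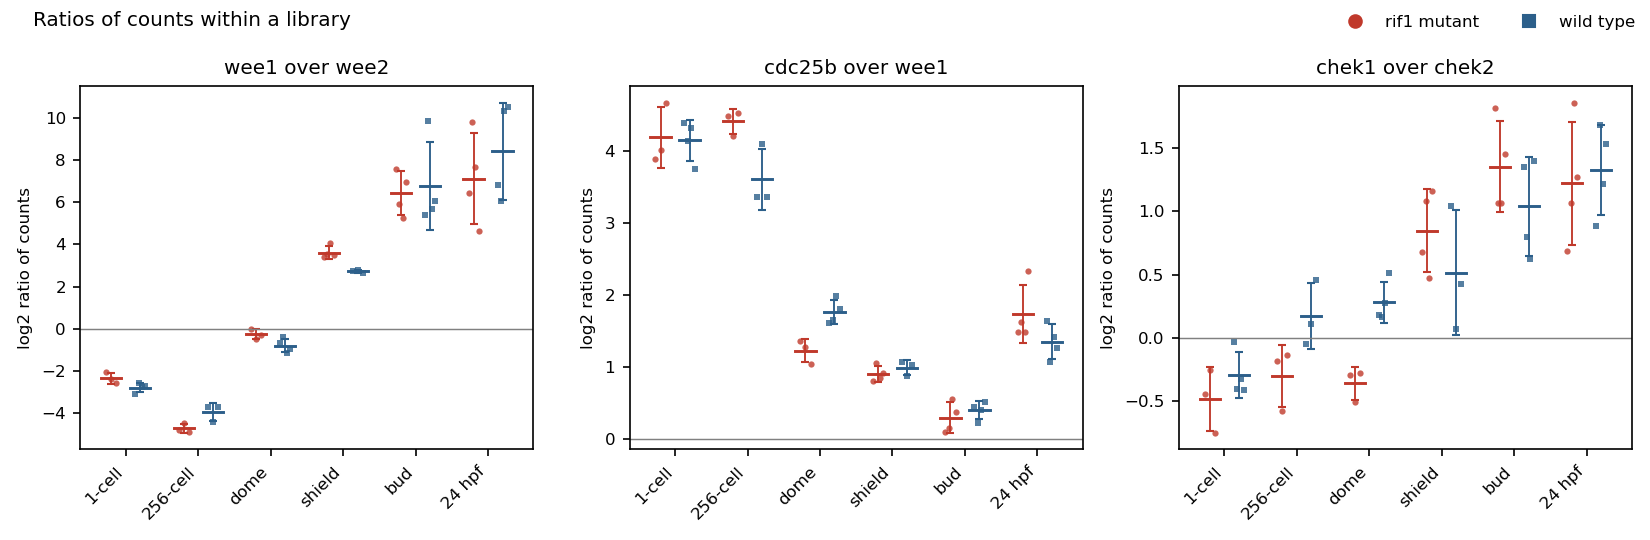
Log2 ratio of the counts of a pair of genes in each library (vertical axis, own scale per pair; pseudocount 0.5) at each of the 6 stages, mutant libraries as red circles left of wild-type libraries as blue squares, with group mean and SD. The wee1 to wee2 ratio is below 0 up to 256-cell and above 0 from shield on, and at shield every mutant library (3.39 to 4.08) is above every wild-type library (2.64 to 2.79).

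Mean levels of both effector kinase genes went down from the 1-cell stage to shield. Between 1-cell and 256-cell, however, chek1 was not called in either genotype, and its libraries overlapped. The chek2 level fell between 1-cell and 256-cell (-0.38 in mutants and -0.71 in wild type), between 256-cell and dome (-1.29 in mutants and -1.22 in wild type) and between dome and shield (-1.67 in mutants and -1.29 in wild type). Its mean went down through 203, 160.1, 64.3 and 20.3 CPM in mutants over these 4 stages, and through 225, 136, 58.6 and 23.5 CPM in wild type, and stayed at 25.6 to 33.3 CPM in the 4 later groups. The mutant fall between 1-cell and 256-cell was lost under library totals (adjusted p = 0.151), without the low-count filter (0.0713), in one fit of all 12 groups (0.187) and without mutant 1-cell replicate 1 or 2 or any 1 of the 3 mutant 256-cell libraries (0.0683 to 0.171). The chek1 level fell between 256-cell and dome (-1.36, SE 0.15 in mutants and -1.08, SE 0.16 in wild type). It fell between dome and shield in wild type (-1.03, SE 0.24, adjusted p = 0.00132), while the mutant change of -0.45 (SE 0.22) did not pass (adjusted p = 0.101) except under library totals (-0.86, adjusted p = 0.00252). It then rose between shield and bud in both genotypes (0.89, SE 0.19 in mutants and 0.93, SE 0.21 in wild type). The chek2 changes at that step were 0.39 (SE 0.25) in mutants and 0.44 (SE 0.24) in wild type, which did not pass (adjusted p = 0.214 and 0.136). In one fit of all 12 groups they did (0.0167 and 0.0291). The difference between the 2 genes was not tested.

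Both apical kinase genes had their lowest mean levels at shield. In wild type the shield libraries overlapped those of bud for atr, whose change at that step was not called. For atm the shield libraries overlapped those of dome in both genotypes. In mutants atr rose between 1-cell and 256-cell (1.04, SE 0.33, adjusted p = 0.0184), where the wild-type change was 0.05 (SE 0.22). That rise was lost without mutant 1-cell replicate 1 (adjusted p = 0.0545) or 2 (0.0569), without mutant 256-cell replicate 2 (0.109) and in one fit of all 12 groups (0.0792). Between dome and shield atr fell in mutants to 1 count, against 361 counts in the 3 mutant dome libraries, which is 0.248% of the dome level (exact 95% interval 0.00625% to 1.39%), while the wild-type log2 change was -2.16 (SE 0.46, adjusted p = 0.000674). The atm level fell between 256-cell and dome in mutants (-2.32, SE 0.75, adjusted p = 0.0155; 0.0514 without mutant 256-cell replicate 2), against a wild-type change of -1.06 (adjusted p = 0.0544). It rose between shield and bud in mutants (4.43, SE 0.97, adjusted p = 0.00116), from 9 counts at shield, 8 of them in 1 library. It rose at that step in wild type too (2.89, SE 1.06, adjusted p = 0.0297). In both genotypes atm passed the low-count filter there through bud alone, so these calls add no separate support. In wild type it also fell between 1-cell and 256-cell (-1.23, SE 0.29) and rose between bud and 24 hpf (1.14, SE 0.37), both lost in one fit of all 12 groups (adjusted p = 0.215 and 0.156), and it fell between dome and shield (-2.72, SE 1.09, adjusted p = 0.0438). The wild-type changes into and out of shield rest on 1 library with counts at that stage. The fall was lost without wild-type dome replicate 1, 3 or 4 or shield replicate 1 or 3 (adjusted p = 0.0599 to 0.143), and the rise without shield replicate 1 or 3 or bud replicate 1 or 2 (0.0672 to 0.0981).

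The cdc25b level fell between 1-cell and 256-cell (-1.52, SE 0.16 in mutants and -1.19, SE 0.13 in wild type) and rose between 256-cell and dome (0.94, SE 0.09 in mutants and 1.09, SE 0.10 in wild type). Between dome and shield neither change was called (-0.09 in mutants and 0.12 in wild type). There, scaling by library totals lowered the median log2 change of all genes by 0.41 in mutants and 0.47 in wild type, and gave cdc25b changes of -0.50 in mutants and -0.35 in wild type that passed (adjusted p = 9.48e-05 and 0.00160). Between shield and bud it fell in both genotypes (-1.25, SE 0.13 in mutants and -1.31, SE 0.09 in wild type). From bud to 24 hpf it fell in wild type (-0.31, SE 0.09, adjusted p = 0.00562), while the mutant change of -0.26 (SE 0.13) did not pass (adjusted p = 0.0976).

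**Figure D4:**
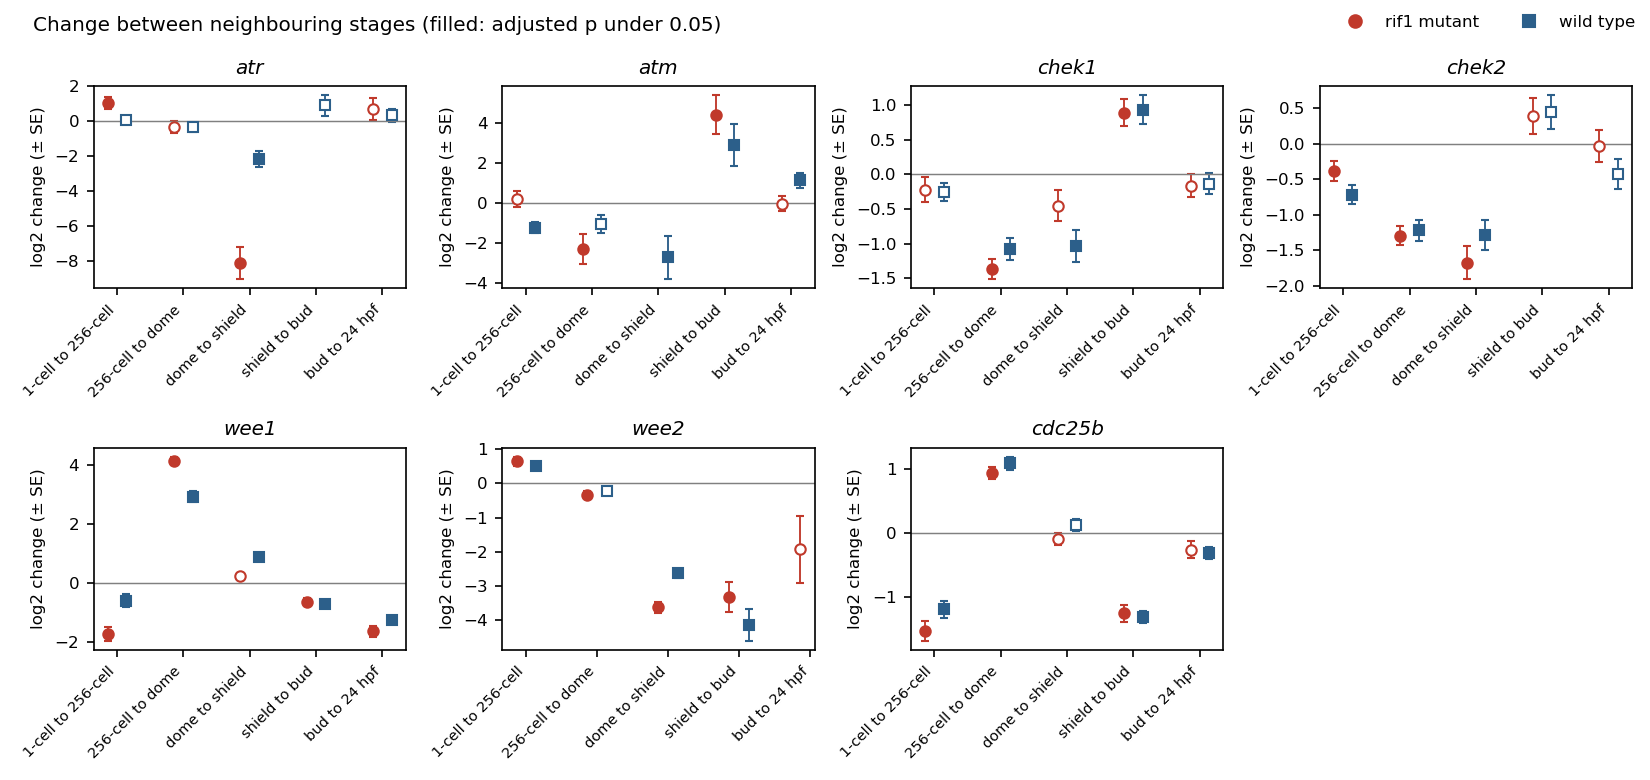
Log2 change with its standard error between neighbouring stages (later over earlier; vertical axis, own scale per gene) for the 7 genes that could be tested, mutants as red circles left of wild type as blue squares, filled where the adjusted p was under 0.05; changes that were not tested have no point. The rise of wee1 between 256-cell and dome is larger in mutants (4.13) than in wild type (2.91), and the falls of atr and wee2 between dome and shield are steeper in mutants.

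Whether these changes differed between the genotypes was tested as an interaction (change in mutants minus change in wild type, on the log2 scale). Between 1-cell and 256-cell 1 of 7 genes was called (6.88% of all genes tested): wee1 fell further in mutants, by a difference of -1.09 (SE 0.31, adjusted p = 0.0328). That call was lost when any of 7 libraries was left out, namely mutant 1-cell replicate 1, wild-type 1-cell replicates 1 and 2, mutant 256-cell replicates 1 and 3 and wild-type 256-cell replicates 1 and 3 (adjusted p = 0.0507 to 0.0919). Between 256-cell and dome 1 of 7 was called (6.94%): wee1 rose further in mutants, by 1.22 (SE 0.23, adjusted p = 0.000692), with the call kept without each library in turn. Between dome and shield 3 of 7 were called (6.83%). These were atr (-5.96, SE 1.02, adjusted p = 0.000169, resting on the 1 count in mutant shield libraries), wee2 (-0.93, SE 0.20, adjusted p = 0.00295) and wee1 (-0.59, SE 0.16, adjusted p = 0.0212). The wee1 difference was lost without mutant dome replicate 1 (0.0565) or 3 (0.0700) or wild-type dome replicate 3 (0.0528), and in one fit of all 12 groups both wee1 (0.0946) and wee2 (0.198) were lost. Between shield and bud 0 of 8 were called by edgeR (2.66%), with 1, atr, at an unadjusted p under 0.05 and also by DESeq2 (log2 difference 4.75, adjusted p = 0.0243). Between bud and 24 hpf 0 of 8 were called by edgeR (2.91%) and 0 by DESeq2, with 0 at an unadjusted p under 0.05 in edgeR and 1 in DESeq2.

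Genes whose products load and activate ATR include those of the 9-1-1 clamp, its loader, RPA and ATRIP. Of 18 symbols listed, 16 were matched and 15 passed the low-count filter at each stage. Between the genotypes 1 was higher and 1 lower in mutants at the 1-cell stage, 2 and 1 at 256-cell, 2 and 0 at dome, 1 and 0 at shield, 0 and 0 at bud and 1 and 0 at 24 hpf, with list medians of -0.04 to 0.16, against -0.03 to 0.02 for all genes tested. At these 6 stages 10.2%, 13.5%, 17%, 9.71%, 5.51% and 8.64% of all genes were called. The gene called most often was rhno1 (ENSDARG00000091640), which encodes a partner of the 9-1-1 clamp and TopBP1 in ATR activation. It was higher in mutants at 4 stages: it averaged 64.4 ± 15.5 CPM in mutants and 28.5 ± 7.41 CPM in wild type at the 1-cell stage, and 82.4 ± 14.5 CPM in mutants and 28.8 ± 3.28 CPM in wild type at 256-cell. The log2 fold changes were 1.20 and 1.52, and 1.36 at shield and 1.34 at 24 hpf (adjusted p = 0.00604, 1.13e-06, 0.0386 and 0.00378), though the shield call was lost without mutant replicate 1, 2 or 3 or wild-type replicate 3 or 4 (adjusted p = 0.0586 to 0.181). The clamp-loader gene rfc3 (ENSDARG00000055969) was lower in mutants at the 1-cell stage (-0.98, adjusted p = 0.0294) and higher at dome (0.60, adjusted p = 0.0104), and both calls were lost without single libraries (adjusted p up to 0.116 and 0.0737), the dome call also in one fit of all 12 groups (0.0613). The remaining calls were atrip (0.73) and rpa3 (-0.28) at 256-cell and rfc4 (0.46) at dome, named after their values were seen.

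Among genes of the break response around ATM, 9 of 10 symbols were matched and 6 or 7 were tested at each stage. Between the genotypes 1 was higher, at the 1-cell stage, and 1, 2, 0, 1, 1 and 1 were lower from the 1-cell stage to 24 hpf, with list medians of -0.44 (shield) to 0.05 (24 hpf), against -0.03 to 0.02 for all genes tested. The shares of all genes called at the 6 stages, 5.51% to 17%, are those given above. The histone variant gene h2ax (ENSDARG00000029406), whose product is phosphorylated by ATM at breaks, was higher in mutants at the 1-cell stage (log2 fold change 1.16, adjusted p = 0.0392) and lower at shield (-1.03, adjusted p = 0.0207) and bud (-1.15, adjusted p = 0.0421). Its means were 36.7 ± 4.88 CPM in mutants and 16.7 ± 9.58 CPM in wild type at the 1-cell stage, and 21.3 ± 5.27 CPM in mutants and 44.9 ± 17 CPM in wild type at shield. Each of these 3 calls was lost when single libraries were left out (adjusted p up to 0.118, 0.144 and 0.178) and in one fit of all 12 groups (0.0552, 0.0769 and 0.0852). The gene nbn (ENSDARG00000040303), for the Nbs1 subunit that brings ATM to breaks, was lower in mutants at 256-cell, with 4.12 ± 1.81 CPM in mutants and 11.6 ± 5.93 CPM in wild type (-1.50, adjusted p = 0.0275), a call also lost without single libraries (adjusted p up to 0.237) and in one fit of all 12 groups (0.477). The other calls, all lower in mutants, were rnf8 at the 1-cell stage (-0.73), mdc1 at 256-cell (-0.65) and usp28 at 24 hpf (-0.91), named after their values were seen.

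Of 24 symbols for Cdk1, its cyclins and other mitotic-entry genes 18 were matched and 16 or 17 tested at each stage. Between the genotypes 0 were higher and 1 lower at the 1-cell stage, 1 and 3 at 256-cell, 3 and 2 at dome, 2 and 1 at shield, 0 and 0 at bud and 1 and 2 at 24 hpf. From the 1-cell stage to 24 hpf 10.2%, 13.5%, 17%, 9.71%, 5.51% and 8.64% of all genes were called. The cyclin A1 gene ccna1 (ENSDARG00000043236) was lower in mutants at 4 stages in a row, with log2 fold changes of -0.69 at the 1-cell stage, -0.46 at 256-cell, -0.38 at dome and -0.83 at shield (adjusted p = 0.0489, 0.000150, 0.00196 and 3.61e-05). At shield it averaged 330 ± 43.1 CPM in mutants and 607 ± 111 CPM in wild type. The 1-cell call was lost with RLE size factors (adjusted p = 0.0524) and without any of 6 of the 7 libraries, mutant replicates 1, 2 and 3 and wild-type replicates 1, 2 and 4. In one fit of all 12 groups the calls at the 1-cell, 256-cell and dome stages were lost (adjusted p = 0.104, 0.501 and 0.398). The cyclin B3 gene ccnb3 (ENSDARG00000034855) was higher in mutants at dome, with 119 ± 5.12 CPM in mutants and 48.0 ± 10.5 CPM in wild type (1.32, adjusted p = 1.62e-06), and lower at 24 hpf (-0.70, adjusted p = 0.000217). The gene mnat1 (ENSDARG00000002077), for a subunit of the Cdk-activating kinase, was lower in mutants at dome, with 13.1 ± 2.61 CPM in mutants and 30.6 ± 5.39 CPM in wild type (-1.22, adjusted p = 0.00293). Named after their values were seen, cdk1 itself was higher in mutants at 256-cell (0.66), dome (0.73) and shield (0.64) and lower at 24 hpf (-0.36). The Cdk1-binding subunit gene cks1b was higher at dome (0.43), shield (0.82) and 24 hpf (0.40). The remaining calls, also named after their values were seen, were pkmyt1 (-0.57) and ccnb1 (-0.24), both lower in mutants at 256-cell.

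Of the 5 steps between stages, the median of the mitotic-entry list was farthest from 0 between 1-cell and 256-cell in both genotypes. There 12 of 15 tested genes rose and 2 fell in mutants (list median 1.36, against -0.02 for all genes, of which 45.5% were called), and 12 of 16 rose and 2 fell in wild type (median 1.02, against -0.02, with 49.2% called). Between 256-cell and dome 3 of 16 rose and 10 fell in mutants (median -0.64, against -0.05, with 50.1% of all genes called), and 2 of 16 rose and 11 fell in wild type (median -0.70, against 0.01, with 43.3% called). The wee1 and cdc25b genes ran opposite to most of these genes at both steps, falling before 256-cell and rising to dome, as given above.

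Genes whose course was most like that of each of the 8 were listed by Pearson correlation over the 12 group means of log2 CPM, among 7598 candidate genes. The closest was pabpn1l for wee2 (r = 0.996), then akap1a (0.995). For chek2 they were gbgt1l1 (0.989) and haus6 (0.985), for chek1 usp32 (0.985) and coil (0.982), and for wee1 zbedx (0.980) and pcf11 (0.964). For atm they were usp12a (0.969) and fryl (0.967), for cdc25b hm13 (0.960) and dstyk (0.953), and for atr faf1 (0.954) and ttc19 (0.951). The correlations of cdc25d with ogdh (0.965) and rsl24d1 (0.951) rest on few counts. All means share libraries and scaling. In the RefSeq gene order of assembly GRCz12tu none of the 8 genes lies on the chromosome of rif1, and wee1 and wee2 lie on the same chromosome with 120 genes between them.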

How the data were processed

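Pools of whole embryos were profiled with the QuantSeq 3′ mRNA kit, sequenced from 1 end, per the labels' protocols. The authors deposited raw read counts per gene in whole numbers, without normalization. The submitters' processing notes name STAR, HTSeq and the build GRCz11; the annotation, the strand setting and whether molecular identifiers were collapsed are not given in the sources used here, so overlapping genes may share reads and intervals cover counting error only. Symbols were matched to 28877 of the 31877 Ensembl identifiers; all 43 columns were used. Replicates were compared by chi-square per gene (lowest 7.60), and none was a repeat of another. Gaps in the library numbers were left as they are.

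Each comparison was fitted on its own groups in R 4.3.3 with edgeR 4.0.16 (robust quasi-likelihood fit, TMM, filterByExpr, Benjamini-Hochberg adjustment over all genes tested, called under 0.05), with interactions over 4 groups. Each standard error was taken as |log2 fold change| over the square root of F. The scripts were tested on simulated data. Alternatives were RLE size factors, library totals, no low-count filter, the DESeq2 1.42.0 Wald test, the replicate number added as a block, one fit of all 12 groups, and leaving out each library. Deviations from the group means of same-numbered libraries correlated at -0.12 to 0.06, so the numbers do not pair the samples. Levels are CPM with TMM factors over all libraries; CPM of pathway-list genes are scaled within the comparison. Named genes are the 9 symbols, rif1, the 2 genes most like each by course (at least 5 CPM on average, prior count 2), and in each pathway list the called genes with the largest rise, the largest fall and the most stages called in 1 direction. The genes, lists and tests were chosen with earlier results of these data known.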

Additional observations from a re-analysis of the deposited data

Results flagged for a closer look

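In 4 of the 63 gene and group combinations with 4 libraries, 1 library stood apart from the rest by Dixon's criterion, which chance meets in about 1 in 20 groups. For atr this was mutant shield replicate 2, with 0.176 CPM from its single count where the other 3 libraries had 0. With those at 0 any count would meet the criterion. The rate of 1 in 20 therefore does not hold there, nor in other groups near 0, such as atm in mutant shield libraries. For atm these were mutant shield replicate 4 at 1.38 CPM, above the others; mutant bud replicate 1 at 4.45 CPM, below the others; and mutant 24 hpf replicate 4 at 12.7 CPM, above the others.

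The genotype difference changed between neighbouring stages, by the interaction test, in 5 cases. The log2 difference of wee1 changed by -1.09 from 1-cell to 256-cell, by 1.22 from 256-cell to dome and by -0.59 from dome to shield; its genotype log2 fold changes at these 4 stages were 0.34, -0.76, 0.45 and -0.13. From dome to shield the differences of atr and wee2 changed by -5.96 and -0.93, the atr value resting on 1 count in mutant shield libraries. As given above, the wee1 calls from 1-cell to 256-cell and from dome to shield were lost without single libraries. In one fit of all 12 groups the wee1 and wee2 calls from dome to shield were lost.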

How the results depend on the processing

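For 152 results 2036 values were recomputed under alternatives, and 1851 kept their direction and their side of the threshold. Counts of all genes called moved by over 1.5 times in these cases. DESeq2 called 1858 at the 1-cell stage (reported as 1232), 566 in the interaction from shield to bud (reported as 338) and 633 in that from bud to 24 hpf (reported as 398), where dropping the low-count filter gave 663. One fit of all 12 groups called 725 at 256-cell (reported as 1499), 260 at 24 hpf (reported as 1083), 589 in the interaction from 256-cell to dome (reported as 904) and 180 in that from bud to 24 hpf. Leaving out libraries gave 466 to 1390 at the 1-cell stage, 606 to 1136 at shield (reported as 1044), 360 to 621 at bud (reported as 584), and 503 to 1157 (reported as 898), 211 to 370 and 265 to 473 in the interactions from 1-cell to 256-cell, shield to bud and bud to 24 hpf. The cause of these shifts was not tested.

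Same-numbered libraries were not paired by the check. With the replicate number as a block 361 genes were called at bud (reported as 584), and of the 8 genes 2 instead of 1 in the interaction from 1-cell to 256-cell, the second being atm (1.83, adjusted p = 0.0165).

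Of the 8 genes, one fit of all 12 groups called 1 at the 1-cell stage (reported as 2). That gene was cdc25b, higher in mutants, while the reported calls of atr and atm were lost. The same fit called 1 at 256-cell (reported as 0), 0 at dome and 0 at 24 hpf (reported as 1 each) and 1 at bud (reported as 0). Between stages it called 3 between 1-cell and 256-cell in wild type and 2 in mutants (reported as 5 each), and 2 between bud and 24 hpf in mutants (reported as 1). In interactions it called 1 from dome to shield (reported as 3) and 1 from shield to bud (reported as 0). Counts of all genes called also moved in that fit, as given above. Library totals called 2 at dome, and in mutants 5 between dome and shield (reported as 3) and 2 between bud and 24 hpf. Of all genes they called 860 higher and 1143 lower at dome. In mutants they called 1730 and 3857 between dome and shield, and 3577 and 3681 between bud and 24 hpf. Without the low-count filter 2 were called at dome, 1 at bud and 2 in the interaction from 1-cell to 256-cell. DESeq2 called 1 at bud and 1 in the interaction from shield to bud. Of all genes it called 399 higher and 444 lower at bud, and 237 and 329 in that interaction. For none of the alternatives, left-out libraries included, is the share of all genes tested given here. Leaving out libraries gave 1 to 2 at the 1-cell stage, 0 to 1 at 256-cell, 0 to 2 at dome, 1 to 2 at shield, 0 to 1 at bud, 0 to 1 at 24 hpf, 3 to 5 and 1 to 2 in mutants between 1-cell and 256-cell and between bud and 24 hpf, and 0 to 1 in the 1-cell to 256-cell interaction and in that between shield and bud.

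Some log2 values changed sign. Library totals turned cdc25b between dome and shield in wild type (-0.35), wee1 there in mutants (-0.18) and rfc3 at 256-cell (0.030). The block turned rfc3 at shield (0.081) and nbn at 24 hpf (-0.72, reported as 0.25). The mutant change of atm from bud to 24 hpf (reported as -0.04) was 0.051 with RLE size factors and with DESeq2, 0.048 without the filter, 0.024 with the block and 0.033 in one fit of all 12 groups. Leaving out libraries gave, between the genotypes, -0.11 to 0.40 for atm and -0.071 to 0.052 for rfc3 at 256-cell, -0.16 to 0.017 for wee2 at dome, -0.10 to 0.32 for chek1, -0.21 to 0.22 for rfc3 and -1.64 to 0.11 for nbn at shield, -0.58 to 0.091 for wee2 at bud, and -0.077 to 0.0075 for cdc25b and -0.86 to 0.71 for nbn at 24 hpf. Between stages it gave -0.084 to 0.13 for atr from 1-cell to 256-cell in wild type, and in mutants -0.022 to 0.81 for atm from 1-cell to 256-cell and -0.27 to 0.085 from bud to 24 hpf. None of these values passed the threshold as reported. Of the reversed values, cdc25b between dome and shield in wild type passed it under library totals (adjusted p = 0.00160).

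Scaling by library totals also moved the share of higher calls by over 10 points, to 63.3% at the 1-cell stage (reported as 50.6%), 38% at shield (48.0%), 36.9% at 24 hpf (50.3%), 41.1% and 30.2% between 256-cell, dome and shield in wild type (51.8% and 49.3%), 38.5% and 31.0% in mutants (51.1% and 49.9%) and 31.2% in the interaction from 256-cell to dome (43.9%). One fit of all 12 groups moved it to 38.8% at the 1-cell stage, 30.0% at shield, 35.0% at 24 hpf, 68.0% in the interaction from shield to bud (45.9%) and 43.3% in that from bud to 24 hpf (56.8%). Low counts limit atr and atm at shield and cdc25d throughout.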
